A study of Mus musculus with 10 samples.

Results

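The Hedgehog pathway was followed here through 9 mouse genes: the ligand genes Shh, Ihh and Dhh, the receptor gene Ptch1, the signal transducer gene Smo, the inhibitor gene Sufu and the transcription factor genes Gli1, Gli2 and Gli3. They were taken as the probe sets whose platform annotation names 1 of these genes, which gave 20 probe sets, and the brightest probe set of a gene over all 10 arrays stood for it. The set was chosen by the measured difference of Gli2 between transgenic and non-transgenic oocytes, so that difference is described without a test. The other 8 genes belong to the set by their place in the pathway. A gene was tested where a probe set was above log2 5, an intensity of 32, in at least 4 arrays. Of the 9 genes, 5 passed (Gli2, Gli3, Shh, Smo and Sufu), of 10591 genes tested in all.

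The study lowered the mRNA of basonuclin (Bnc1), a zinc finger protein of keratinocytes and germ cells, with a transgene that drives RNA interference in oocytes. The promoter of the transgene and the strain and age of the mice are not given in the sources used here. RNA came from fully grown oocytes at the germinal vesicle stage, which are arrested before meiotic maturation. There were 6 samples from RNAi-transgenic mice (replicates 4, 5, 6, 11, 12 and 13) and 4 from non-transgenic mice (replicates 1, 2, 7 and 8), each of about 50 oocytes from 1 mouse, on 1 array each. Since oocytes were pooled, more mRNA in every oocyte and a larger share of oocytes that hold the mRNA cannot be told apart.

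In Hedgehog signalling a secreted ligand binds Ptch1 and thereby frees Smo from inhibition. Active Smo releases the Gli proteins from Sufu, so that they reach the nucleus as activators, whereas without ligand they are cut to repressors or degraded. Gli2 is known mainly as an activator, Gli3 mainly as a repressor, and Gli1 is itself a target that amplifies the response, as Ptch1 is a target that dampens it. In the ovary granulosa cells are known as the source of Ihh and Dhh, and theca cells as the responding cells, with Gli1 and Ptch1 as their readout.

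The arrays were alike in scale, with median intensities of 17.5 to 20.1 and 40.1% to 40.9% of probe sets above log2 5. Bnc1 was between log2 3.67 and 4.26 in transgenic samples, against 11.40 to 11.76 in non-transgenic samples, so each sample matched its label. All 12 oocyte markers examined, such as Gdf9 and Zp3, were above the level on every array. At a limma adjusted p below 0.05, 1 of them rose (Kit, by 0.78) and 2 fell (Figla at -0.54 and Dppa3 at -0.21). Of the markers of other cells, 5 of 15 for granulosa and cumulus cells, 6 of 7 for theca and luteal cells, 6 of 11 for stroma and vessels and 6 of 8 for blood and immune cells were below the level on every array. Of all genes tested, 37.2% passed an adjusted p of 0.05 (limma, Benjamini-Hochberg), 18.9% as higher and 18.3% as lower in transgenic oocytes.

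Among the Gli factors, Gli2 was the gene with a large difference. Its brightest probe set, 1459211_at, was at log2 12.46, 12.04, 12.54, 12.18, 11.92 and 12.09 in transgenic replicates 4, 5, 6, 11, 12 and 13, against 8.73, 6.84, 7.10 and 8.64 in non-transgenic replicates 1, 2, 7 and 8. Every transgenic sample lay above every non-transgenic one, with a gap of 3.19 between the lowest transgenic and the highest non-transgenic sample. The non-transgenic samples fell into a higher pair, replicates 1 and 8, and a lower pair, replicates 2 and 7.

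On the linear scale the mean intensity was 4777 ± 826 (SD, n = 6) in transgenic and 269 ± 166 (SD, n = 4) in non-transgenic oocytes. The group means on the log2 scale were 12.20 ± 0.24 in transgenic and 7.83 ± 1.00 in non-transgenic oocytes, a difference of 4.38 or 20.8-fold. Ordered by this difference, Gli2 stood at place 35 of 10591 genes tested, with 0.321% of them above it, and the median gene was at -0.03. For 14.8% of tested genes every transgenic sample was above every non-transgenic one. These values led to the choice of the gene and are given as a description.

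The second probe set of Gli2, 1446086_s_at, had intensities of 823, 629, 1024, 625.3, 505 and 564 in transgenic replicates 4, 5, 6, 11, 12 and 13, against 46.7, 53.7, 33.9 and 59.3 in non-transgenic replicates 1, 2, 7 and 8. The non-transgenic samples lay close above the filter level of 32, and the groups did not overlap. On the log2 scale the means were 9.40 ± 0.38 in transgenic and 5.57 ± 0.35 in non-transgenic oocytes, a difference of 3.83. In both probe sets replicate 6 was the highest and replicate 12 the lowest of the transgenic samples. The non-transgenic order was not shared, since replicate 2 was lowest in the brighter and replicate 7 in the dimmer probe set. The platform annotation lists the same sequence record for both, so they are not independent measurements of the gene. Where in Gli2 they lie could not be checked without the probe sequences.

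**Figure D1:**
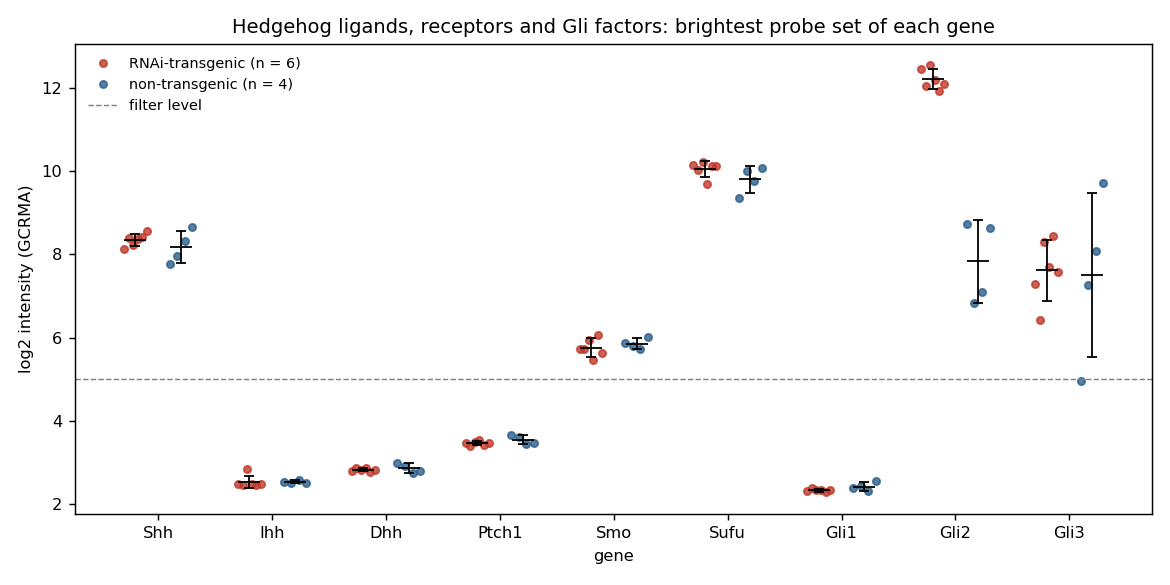
Log2 intensity (GCRMA, vertical axis) of the brightest probe set of each of the 9 genes (horizontal axis) in RNAi-transgenic (red, left) and non-transgenic (blue, right) samples, with a point for each sample and the mean ± SD. Gli2 has a gap of 3.19 between the groups, whereas Ihh, Dhh, Ptch1 and Gli1 lie below the filter level (dashed) in all samples.

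Gli2 lies on the minus strand at chr1:118834061-119054405 (GRCm38.p6), and Gli3 on the plus strand at chr13:15463723-15730026. RefSeq (same build) promoter windows of 250 bases before to 50 after a start site were found for 7 of the 9 genes, all but Gli1 and Shh. The windows of Gli2 and of its paralog Gli3 are shown with each CpG in capitals. The probe sets of Gli2 differed between the groups, whereas Gli3 did not pass the test. The Gli2 window is chr1:119053570-119053869 on the minus strand and the Gli3 window chr13:15463473-15463772 on the plus strand, both read 5′ to 3′. The start site used for the Gli2 window lies inside the annotated span of the gene, so the window is that of 1 of its transcripts.
Gli2: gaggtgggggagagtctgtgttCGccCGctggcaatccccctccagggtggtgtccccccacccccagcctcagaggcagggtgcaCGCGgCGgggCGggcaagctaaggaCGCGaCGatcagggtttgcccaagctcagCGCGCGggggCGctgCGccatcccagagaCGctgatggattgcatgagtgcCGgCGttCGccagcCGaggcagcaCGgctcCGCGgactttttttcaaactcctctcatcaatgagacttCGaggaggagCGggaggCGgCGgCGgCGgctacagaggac
Gli3: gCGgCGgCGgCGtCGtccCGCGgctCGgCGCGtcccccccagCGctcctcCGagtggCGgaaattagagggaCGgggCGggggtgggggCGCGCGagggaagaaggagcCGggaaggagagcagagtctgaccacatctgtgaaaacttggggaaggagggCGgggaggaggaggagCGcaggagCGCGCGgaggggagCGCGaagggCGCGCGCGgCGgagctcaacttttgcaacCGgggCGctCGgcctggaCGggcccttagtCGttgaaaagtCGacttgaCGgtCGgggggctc

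Both windows were rich in G and C, at 67.3% with 28 CpGs for Gli2 and 71.0% with 39 CpGs for Gli3, where the median of 32851 windows was 52.7% with 7 CpGs. The Gli consensus letters GACCACCCA were searched on both strands and were in 0 of the 7 windows and in 0.253% of all windows. Their first letters, GACCACCC, which overlap that motif, were in 0 of the 7 and in 0.807% of all windows. TATAAA was in 0 of the 7 and in 13.6% of all. The 7 windows ranged from 56.3% in Sufu to 76.3% in Ptch1.

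Gli3 varied among samples of one group more than between the groups. Its brightest probe set, 1455154_at, was at 7.29, 6.41, 8.29, 7.69, 8.45 and 7.58 in transgenic replicates 4, 5, 6, 11, 12 and 13, against 4.96, 7.26, 8.09 and 9.70 in non-transgenic replicates 1, 2, 7 and 8. The non-transgenic samples held both the lowest and the highest value of all 10, and the transgenic samples lay between them. The group means were 7.62 ± 0.74 (SD, n = 6) in transgenic and 7.50 ± 1.98 (SD, n = 4) in non-transgenic oocytes, and the difference of 0.12 did not pass (limma adjusted p = 0.92). Its 95% interval, from -1.52 to 1.75, spans decreases and increases of over 2-fold.

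A second probe set of Gli3, 1456067_at, was at 6.22 ± 0.50 in transgenic and 6.64 ± 0.86 in non-transgenic oocytes, a difference of -0.42 (limma adjusted p = 0.422 in a fit of single probe sets, of which 34.0% passed). In both probe sets the highest non-transgenic samples were replicates 8 and 7, and the highest transgenic samples were replicates 12 and 6. Without non-transgenic replicate 1 the difference of the brightest probe set was -0.73, and without replicate 8 it was 0.85, neither past the threshold (limma adjusted p = 0.336 and 0.338). The samples numbered 1 to 6 gave 1.23 and those numbered 7 to 13 gave -0.99, so its direction rests on which samples are compared. The third probe set was between 2.92 and 3.05 on all arrays.

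Gli1 has 1 probe set, which lay between 2.28 and 2.56 on all 10 arrays and so below the filter level in both groups. No difference can be read there.

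The ligand genes gave little signal apart from 1 probe set of Shh. That probe set, 1436869_at, was at 8.14, 8.39, 8.23, 8.36, 8.41 and 8.56 in transgenic replicates 4, 5, 6, 11, 12 and 13, against 7.76, 7.96, 8.32 and 8.65 in non-transgenic replicates 1, 2, 7 and 8. The transgenic values lay within the range of the non-transgenic ones. The difference of 0.17 did not pass (limma adjusted p = 0.436), and its 95% interval was -0.18 to 0.53.

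The other probe set of Shh was between 2.62 and 2.72 on every array. The probe sets of this gene therefore disagree on whether its mRNA was detected. Ihh (2.46 to 2.84) and both probe sets of Dhh, the dimmer between 1.70 and 1.82, were below the level on every array.

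At the receptor step, all 3 probe sets of Ptch1 were below the level on every array, the brightest between 3.39 and 3.67. Smo, the seven-pass membrane protein that carries the signal inward, was at 5.73, 5.72, 5.95, 5.45, 6.06 and 5.62 in transgenic replicates 4, 5, 6, 11, 12 and 13, against 5.86, 5.79, 5.72 and 6.02 in non-transgenic replicates 1, 2, 7 and 8. The groups overlapped over most of their range. The difference was -0.09 (limma adjusted p = 0.596, 95% interval -0.36 to 0.18). The other 2 probe sets of Smo, at most at 4.18, were below the level throughout.

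Sufu, which holds Gli proteins in the cytoplasm, was well above the level in both groups. Its brightest probe set, 1450024_at, was at 10.14, 10.04, 10.22, 9.69, 10.12 and 10.13 in transgenic replicates 4, 5, 6, 11, 12 and 13, against 9.36, 10.01, 9.76 and 10.08 in non-transgenic replicates 1, 2, 7 and 8. Transgenic replicate 11 and non-transgenic replicates 1 and 7 were the low samples, and the groups overlapped. The difference was 0.25 (limma adjusted p = 0.208, 95% interval -0.07 to 0.58).

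The other 2 probe sets of Sufu lay near the filter level. One, 1431713_at, was at 5.15 ± 0.12 in transgenic and 5.27 ± 0.09 in non-transgenic oocytes (limma adjusted p = 0.276 in the fit of single probe sets). The other, 1420848_at, was at 5.10 ± 0.14 in transgenic and 4.35 ± 0.38 in non-transgenic oocytes. Its groups did not overlap, with a gap of 0.28 between their nearest samples. It reached the level in 4 transgenic and 0 non-transgenic samples and so passed the filter only through the group in which it is higher. No test is given for it.

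Counted together, 0 of the 4 tested genes other than Gli2 passed in limma, also at an unadjusted p below 0.05, beside 37.2% of all genes tested. In all 4 the groups overlapped, and 28.0% of all genes had groups that did not. When the probe sets of each gene were averaged, 1 of the 4, Sufu, passed with a difference of 0.29 (limma adjusted p = 0.0427). That mean includes the probe set that passed the filter only through transgenic samples.

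**Figure D2:**
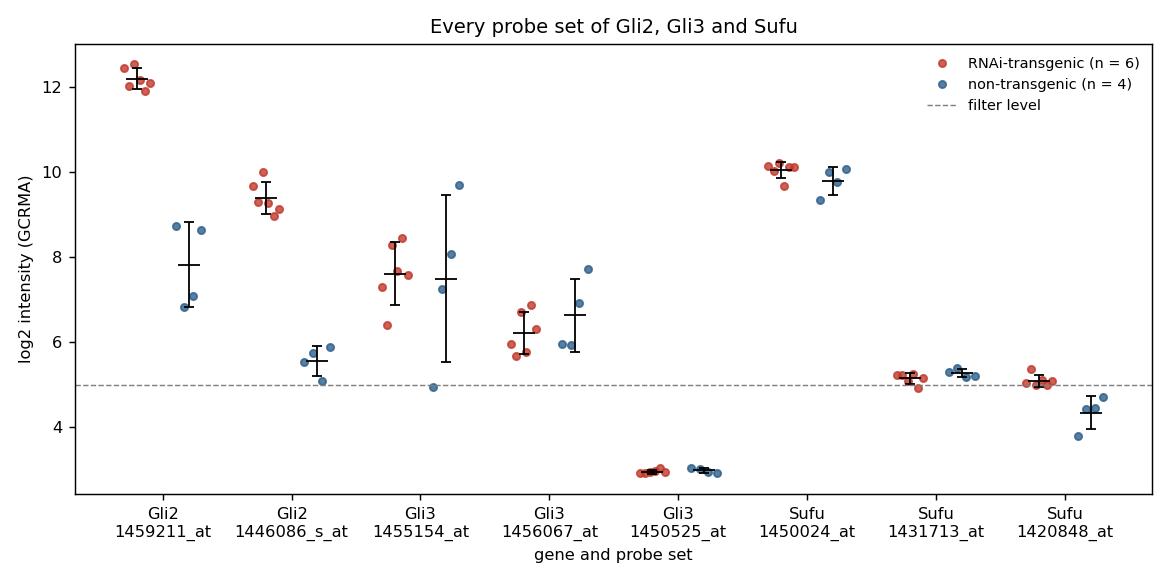
Log2 intensity (GCRMA, vertical axis) for every probe set of Gli2, Gli3 and Sufu (horizontal axis) in RNAi-transgenic (red, left) and non-transgenic (blue, right) samples, with a point for each sample and the mean ± SD. Both Gli2 probe sets separate the groups, and both Gli3 probe sets above the filter level (dashed) overlap. Sufu 1420848_at also separates the groups, but near that level, with all non-transgenic samples below it.

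Other genes of the pathway were taken from 7 lists by role. Of 177 genes of these lists that are on the array, 115 were tested. Of these, 16 rose and 20 fell, or 31.3%, beside 37.2% of all genes. After quantile normalization 13 rose and 25 fell, and after median centring 14 rose and 15 fell. The median difference was -0.07 over the lists and -0.03 over all genes. Of the 16 that rose, 6 reached the filter level in 0 non-transgenic samples, so they could be tested only because they were higher in transgenic samples. Without these 6, 10 of 109 rose and 20 fell, with a median of -0.08.

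**Figure D3:**
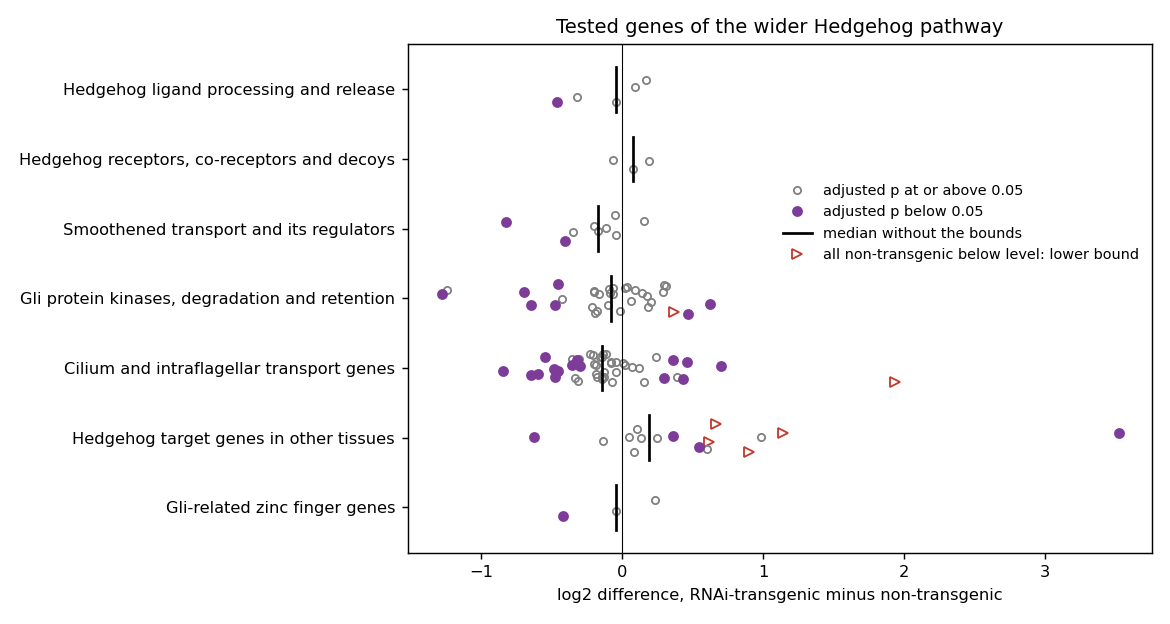
Log2 difference, RNAi-transgenic minus non-transgenic (horizontal axis), of each tested gene of the 7 lists (vertical axis, where height within a list has no meaning), filled where the adjusted p was below 0.05, with triangles at the lower bound of the 6 genes that had 0 non-transgenic samples above the filter and a bar at the median of the other genes. These medians lie between -0.17 and 0.19.

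Few genes that make or receive the ligand passed the filter, where 10591 of 18194 genes were tested over the whole series. Of 13 genes of ligand processing and release, 5 were tested and 1 fell. The gene that fell was Ext2, an enzyme of heparan sulfate synthesis, at -0.46 (SE 0.10, limma adjusted p = 0.00357). Ext2 lost its call under 1 alternative (-0.39, limma adjusted p = 0.144). Hhat, which attaches palmitate to the ligands, was at 6.82 and 6.65 (difference 0.17), and Disp1, which releases them, at 10.53 and 10.43 (difference 0.10) in transgenic and non-transgenic oocytes, and neither passed.

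Of 7 receptors, co-receptors and decoys, 3 were tested and 0 passed in limma, beside 37.2% of all genes. Hhip, a decoy receptor that is a target in other tissues, was at 5.65 in transgenic and 5.72 in non-transgenic oocytes (limma adjusted p = 0.504). Boc and Lrp2 were at the filter level.

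Of 9 tested genes around Smo, 2 fell and 0 rose, or 22.2%, beside 37.2% of all genes. Arrb2, which encodes a beta-arrestin, was at 6.70, 6.88, 7.02, 7.13, 6.87 and 6.60 in transgenic replicates 4, 5, 6, 11, 12 and 13, against 7.63, 7.75, 7.92 and 7.46 in non-transgenic replicates 1, 2, 7 and 8. All transgenic samples were below all non-transgenic ones, by -0.83 on average (SE 0.13, limma adjusted p = 0.000461). Smurf1, a ubiquitin ligase, changed by -0.41 (limma adjusted p = 0.0212). It lost its call without non-transgenic replicate 2, 7 or 8 (limma adjusted p up to 0.0658), within the samples numbered 1 to 6 (0.341) and with median centring (0.0775).

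The kinases, ubiquitin ligases and retention factors of Gli proteins were mostly measured, with 33 of 36 tested. Of these 3 rose and 5 fell, or 24.2%, beside 37.2% of all genes. Without Dzip1, which passed the filter only through transgenic samples, 2 rose and 5 fell. Csnk1g1, a casein kinase 1 gene, showed the largest fall of this list, to 8.27 ± 0.13 (SD, n = 6) in transgenic, against 9.55 ± 0.34 (SD, n = 4) in non-transgenic oocytes (limma adjusted p = 4.45e-05). Csnk1g3 changed by -0.47, and Csnk1e, of the same kinase family, by 0.47, but a second probe set of Csnk1e was at -0.11 and not past the threshold. The kinase genes Csnk1a1 (-0.07), Csnk1d (-0.43), Gsk3a (-0.09) and Gsk3b (0.29) of this list did not pass.

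Of the genes of Gli degradation, Fbxw11 and Cul3 fell. Fbxw11, an F-box protein of the ligase that marks phosphorylated Gli proteins, changed by -0.70 (SE 0.10, limma adjusted p = 0.000229), while its paralog Btrc was at 0.30 and did not pass. Cul3, a scaffold of ubiquitin ligases, changed by -0.45, but its other 3 probe sets were at 0.02, 0.38 and -0.17, none past the threshold, so the measurement is uncertain. Spop, the adaptor that brings Gli proteins to Cul3, was at -0.19 and did not pass.

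Of protein kinase A, which phosphorylates Gli proteins, the catalytic subunit gene Prkacb, named after its value was seen, changed by -0.64 and the regulatory subunit gene Prkar1b by 0.63, but a second probe set of Prkar1b was at 0.04 and not past the threshold. The main catalytic gene Prkaca was at -0.01. Dzip1, a cilium base protein, was at 5.37 in transgenic oocytes, with 0 of 4 non-transgenic samples above the level, and was at least 1.29-fold higher. Stk36, the mouse counterpart of Drosophila Fused, was uneven within transgenic oocytes. It was at 8.59, 9.37, 6.12, 6.02, 8.51 and 8.69 in replicates 4, 5, 6, 11, 12 and 13, against 8.97 to 9.40 in non-transgenic samples (limma adjusted p = 0.151). Replicates 6 and 11 stood over 2 log2 units below the other transgenic samples.

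The cilium is the organelle in which vertebrate Smo and Gli proteins are processed. Of 46 tested genes of cilia and intraflagellar transport, 6 rose and 10 fell, or 34.8%, beside 37.2% of all genes. Their median was -0.14, beside -0.03 over all genes. Without Ttc21b 5 rose. Ttc21b, a subunit of the retrograde transport complex that restrains Hedgehog signalling in mouse embryos, was at 6.77, 6.47, 7.47, 7.01, 6.96 and 6.97 in transgenic replicates 4, 5, 6, 11, 12 and 13, against 4.26, 3.18, 3.15 and 4.27 in non-transgenic replicates 1, 2, 7 and 8. All non-transgenic samples were below the filter level, and with these set to that level Ttc21b was at least 3.84-fold higher. It could enter the test only through the transgenic samples, so no p is given.

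The anterograde transport genes Ift80, Ift22 and Ift20 changed by -0.84, -0.60 and -0.55, and Ofd1 of the basal body by -0.48. Ift46 (0.15), Ift52 (0.01), Ift74 (-0.08), Ift81 (-0.18), Ift88 (-0.15) and Ift172 (-0.33) did not pass. Bbs5 changed by 0.44, the dynein light intermediate chain gene Dync2li1 by 0.46 and the kinesin-associated gene Kifap3 by 0.70. Ift20 lost its call under 2 alternatives (limma adjusted p = 0.0828 and 0.173). Ift22, Ofd1, Bbs5 and Dync2li1 lost theirs under 1 each (limma adjusted p = 0.0613 to 0.180). Kifap3 lost its call under 3 alternatives (limma adjusted p = 0.0677 to 0.179), of which leaving out non-transgenic replicate 7 gave 0.0677. Tulp3, which carries receptors into the cilium, was at 10.92 in transgenic and 10.90 in non-transgenic oocytes. Of the Gli-related zinc finger genes, 3 were tested and 1 fell, or 33.3%, beside 37.2% of all genes. The 1 that fell was Glis3, at -0.42 (limma adjusted p = 0.0207). This call was lost without non-transgenic replicate 1, 2 or 7 (limma adjusted p = 0.0539 to 0.0590). In all it was lost under 5 alternatives, with a limma adjusted p of up to 0.217.

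Genes known as Hedgehog targets in other tissues were mostly below the filter, with 16 of 44 tested. Of these 7 rose and 1 fell, beside 18.9% and 18.3% of all genes. Of the 7, 4 passed the filter only through transgenic samples, and the median of 0.45 over the 16 includes them (also 0.45 with these at their lower bound). Over the 12 genes above the level in at least 1 sample of each group, 3 rose and 1 fell, with a median of 0.19. Many genes of this list also answer to other signals.

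Sox2, a transcription factor of stem cells and the neural tube, was at 8.84, 8.91, 9.52, 9.53, 9.05 and 9.33 in transgenic replicates 4, 5, 6, 11, 12 and 13, against 4.89, 5.41, 6.19 and 6.21 in non-transgenic replicates 1, 2, 7 and 8. Replicate 1 was below the filter level, and with it set to that level Sox2 was at least 11.3-fold higher (limma adjusted p = 1.91e-06). The groups were 2.63 log2 units apart at their nearest samples. Its higher non-transgenic samples were replicates 7 and 8, whereas those of Gli2 were replicates 1 and 8.

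The 4 target genes with 0 non-transgenic samples above the level were the zinc finger gene Snai1 of epithelial to mesenchymal change, the neural tube genes Olig2 and Pax6, and Osr2. Snai1 was at least 1.87-fold, Pax6 at least 2.21-fold and Olig2 at least 1.53-fold higher, and no p is given for them since they passed the filter only through transgenic samples. Osr2, at least 1.59-fold higher, is named after its values were seen. Pax6 ranged from 5.08 to 7.35 among transgenic samples, with replicates 5 and 6 lowest. The cell cycle gene Ccne1 changed by 0.54 and Prdm1, a regulator of germ cell fate, by 0.36, both also named after their values were seen.

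Jag2, a Notch ligand, was the target gene that fell, to 10.33 ± 0.12 (SD, n = 6) in transgenic, against 10.95 ± 0.15 (SD, n = 4) in non-transgenic oocytes (limma adjusted p = 0.000232). Ccnd2 was at 8.93 and 8.32, Bcl2 at 6.13 and 5.88 and Grem1, a BMP antagonist, at 8.07 and 7.09 in transgenic and non-transgenic oocytes, and none of them passed. Mycn, a direct target in cerebellum, was at 5.16 and 5.30 and did not pass.

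**Figure D4:**
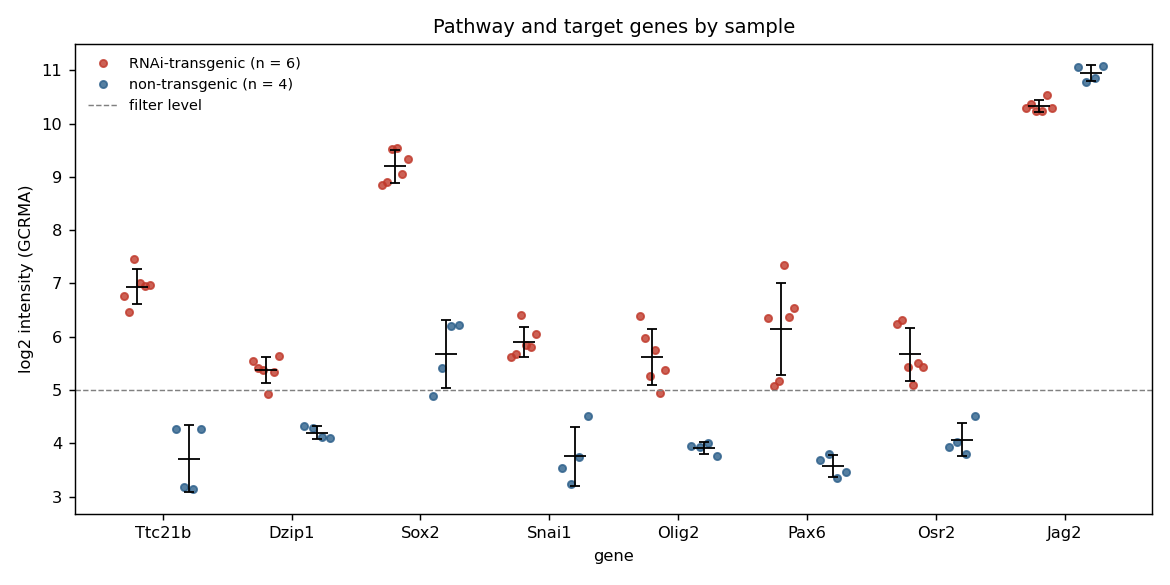
Log2 intensity (GCRMA, vertical axis) of Ttc21b, Dzip1 and 6 genes known as Hedgehog targets elsewhere (horizontal axis) in RNAi-transgenic (red, left) and non-transgenic (blue, right) samples, with a point for each sample and the mean ± SD. Sox2 is above the filter level (dashed) in 3 of 4 non-transgenic samples, Ttc21b, Dzip1, Snai1, Olig2, Pax6 and Osr2 in none, and Jag2 is lower in transgenic samples.

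Genes with a sample pattern like that of Gli2 were named by the correlation of log2 values with its brightest probe set over the 10 samples. The highest were Ttc21b (r = 0.991), the tyrosine breakdown gene Hpd (0.990), the ferlin family gene Fer1l6 (0.988), Mpped2 (0.985) and Stox2 (0.984). The difference between the groups sets most of this measure, and 183 of 10590 genes were above 0.95, so it does not single out a few genes. In Ttc21b the non-transgenic replicates 1 and 8 were also the higher pair, though below the filter level.

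With the group means taken out, the highest correlations over the 10 samples were those of Tlr12 (r = 0.920), Sox10 (0.911), Cd46 (0.910), Rp9 (0.908) and Inpp5f (0.890). This measure rests mostly on the non-transgenic samples, where Gli2 had the larger SD. Rp9, for example, was at 10.29 and 10.82 in replicates 1 and 8 and at 8.07 and 7.79 in replicates 2 and 7. The values compared come from the same arrays, and the correlations are descriptions.

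In the order of protein-coding genes of RefSeq, 3 neighbours on each side of Gli2 were followed. Nifk rose by 0.53 (SE 0.09, limma adjusted p = 0.000895) and Tmem185b rose by 0.41 (limma adjusted p = 0.0149). Clasp1 (0.18) and Inhbb, which encodes an activin and inhibin subunit (0.55), did not pass, and Tfcp2l1 and Ralb were below the filter. All of these are small beside the difference of 4.38 in Gli2.

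Markers of the ovarian cells in which Hedgehog signalling is known were also followed. For theca and luteal cells 1 of 1 tested passed, and for granulosa and cumulus cells 1 of 8, both as higher. Of all genes tested 37.2% passed, 18.9% as higher. Markers that did not pass the filter could not be called. For theca and luteal cells the summed intensity was 117 to 339 in transgenic and 113 to 138 in non-transgenic samples. Of 7 such markers 1 was tested, Cyp11a1, which rose. The other 6, with the defining markers Cyp17a1, Star and Hsd3b1 among them, were below the level on every array. Cyp11a1 ranged from 5.18 to 8.03 in transgenic samples, so the highest sums there rest mostly on this 1 gene. For granulosa and cumulus cells the sums were 1759 to 2849 in transgenic and 1771 to 2046 in non-transgenic samples. Of 8 tested markers 1 rose (Fshr) and 0 fell in limma. The brightest, Nr5a2, was at 9.87 in transgenic and 9.94 in non-transgenic oocytes and did not pass. Fshr, Kitl, Gja1, Gata4 and Hsd17b1 were also above the level on all 10 arrays, Inha on 9 and Inhbb on 8. The differences of Inha (0.59), Gja1 (0.55), Inhbb (0.55), Hsd17b1 (0.33), Kitl (0.06) and Gata4 (-0.37) did not pass. Amh and Amhr2 were below the level on every array, and Foxl2 was above it on 3 of 10.

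For stroma and vessels the sums were 429 to 535 in transgenic and 290 to 399 in non-transgenic samples. Of 4 tested markers 3 rose (Kdr, Postn and Dcn) and 1 fell (Acta2), beside 18.9% and 18.3% of all genes. The collagen genes Col1a2 and Col3a1 were below the level on every array, and Col1a1 in 9 of 10. For blood and immune cells the sums were 2118 to 3232 in transgenic and 2790 to 3128 in non-transgenic samples. These sums rest mostly on the 2 tested markers. Of these 1 was higher (Laptm5) and 1 lower (Srgn), beside the same shares of all genes. Ptprc was below the level on every array. The part of such cells in the differences of Gli2, Sox2 and the other genes was not tested.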

How the data were processed

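Oligonucleotide arrays measured mRNA in 10 oocyte samples. The authors deposited 1 intensity per probe set and array, made with GCRMA per the submitters' processing notes (of a version not stated there), on a linear scale and without detection calls. GCRMA pulls dim probe sets toward a floor, so differences near log2 5 are uncertain. Of its 45101 probe sets, 34958 have 1 gene, 932 have several and are not named, and 64 are controls. Names were updated by gene number through RefSeq GRCm38.p6 for 34754 of them.

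The intensities were converted to log2 and not normalized again. Probe sets above log2 5 in at least 4 arrays were kept (16814), and the brightest stood for a gene. Groups were compared with limma 3.58.1 (lmFit, eBayes with a trend) in R 4.3.3, all 10 samples in 1 unpaired fit, with Benjamini-Hochberg adjustment over all 10591 genes and a threshold of 0.05. The fit was tested on simulated data with known changes. Differences are transgenic minus non-transgenic. Where a fold is printed and the dimmer group had samples below log2 5, these were set to that level and the fold is given as at least that large. Log2 differences, such as those of Gli3 and Inhbb, were left as measured. Intervals of differences are at 95% from limma's standard error. The replicate numbers are not shared by the groups, and the number of arrays limits the precision.

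The 9 genes and the pathway lists were chosen with earlier results of these data known. Named genes are all 9, the called genes of a list with the smallest adjusted p, at most 4 in each direction, of which some are given, uncalled genes with their values, the 5 genes most like Gli2 by each of 2 correlations, and markers of other cells. Prkacb, Osr2, Prdm1, Ccne1 and the neighbours of Gli2 were added after seeing the data. Alternatives were no filter, a filter at log2 7, robust eBayes, eBayes with no trend, 16 added before taking log2, median centring, quantile normalization, the replicate number range (1 to 6, 7 to 13) as a covariate or subset, leaving out single samples, the mean of probe sets and each probe set by itself. Figures were drawn with matplotlib 3.10.9.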

Additional observations from a re-analysis of the deposited data

Results flagged for a closer look

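In 5 of the 40 groups of samples examined (20 probe sets in 2 groups), 1 sample stood apart from the rest of its group, where chance gives about 1 in 20. All 5 were transgenic samples. Of these probe sets, 2 were of Sufu: replicate 11 was at log2 9.69 in 1450024_at, with the next sample at 10.04, and replicate 5 at 5.37 in 1420848_at, with the next at 5.12. The other 3 were below the filter level on every array, with replicate 12 at 3.05 in Gli3 1450525_at (next 2.96), replicate 11 at 2.10 in Ptch1 1450824_at (next 2.03) and replicate 6 at 2.84 in Ihh (next 2.49). No sample of Gli2 stood apart by this measure in either group.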

How the results depend on the processing

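The difference of Gli2 lay between 3.83, in its dimmer probe set by itself, and 4.68 over all alternatives run, and each sample left out in turn gave 4.05 to 4.68. Without a filter the 4 genes below the level were included, and 0 of the 8 genes other than Gli2 passed. None passed with a sample left out (0 to 0). With the mean of probe sets 1 passed (Sufu). Smo has no value with the filter at log2 7. The direction of Gli3, which never passed, turned with the mean of probe sets (-0.15) and in samples numbered 7 to 13 (-0.99), and it ranged from -0.73 to 0.85 with a sample left out (negative without non-transgenic replicate 1 and without transgenic replicates 6 and 12, at -0.017 and -0.048). Shh turned in samples numbered 7 to 13 (-0.041). The cause was not tested. Of the pathway genes, 8 rose with the filter at log2 7, where fewer genes are tested, and 9 rose and 9 fell both in samples numbered 1 to 6 and in those numbered 7 to 13, which hold fewer samples. With a sample left out 13 to 17 rose and 14 to 20 fell. Over all genes, 1914 passed in samples numbered 1 to 6 (1207 higher, 707 lower) and 2265 in those numbered 7 to 13 (1241 higher, 1024 lower). By single probe sets 5714 of 16814 passed. Of 19 called genes rerun singly (those that passed the filter only through transgenic samples aside), 12 lost the call under at least 1 alternative. These were Bbs5, Csnk1e, Cul3, Dync2li1, Ext2, Glis3, Ift20, Ift22, Kifap3, Ofd1, Prkar1b and Smurf1. Prkacb, Prdm1, Ccne1, Nifk and Tmem185b were not rerun. No paired analysis was possible because the groups share no replicate number. Dim signal limits Ihh, Dhh, Ptch1 and Gli1, for which no difference can be read.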
